A study of Drosophila melanogaster with 6 samples.

Results

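Genes of mitosis and the kinetochore were followed in larval brain and fat body of Drosophila melanogaster. The set was given as a list of 37 gene symbols that covers mitotic cyclins and kinases, the spindle checkpoint, the kinetochore, condensin, spindle motors and cytokinesis. Of these, 35 were found among the 14869 genes of the count table, and all 35 were among the 10029 genes tested. The current identifiers of BubR1 and Cenp-C did not match an entry of the table, and both are not analysed here.

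The study sequenced polyadenylated RNA from central brain without the ventral nerve cord, from fat body of larvae whose food contained 4-hydroxytamoxifen (4-HT) at 25 µM, and from fat body of larvae raised without it. Brain larvae were also raised without 4-HT, so brain and 4-HT fat body differ in both tissue and 4-HT. Each of the 3 groups has 2 libraries, which the submitters call biological replicates. All larvae were male, at the wandering stage of the last larval instar and raised at 25 °C. Brain came from 30 larvae per library and fat body from 18. Every library, the controls included, is an equal pool of 6 y,w lines, with 5 larvae per line for brain and 3 for fat body. Each line carries a Dam methylase transgene with a 4-HT-dependent intein under an hsp70 promoter, at the same landing site. One line carries Dam alone, and the others carry Dam joined to PC, H1, HP1, MRG15 or BRM, so no value here belongs to a single line. Total counts were 20687696 and 26530280 in brain, 47054569 and 65802288 in 4-HT fat body and 25860088 and 50905534 in control fat body. Levels below are counts per 1000000 (CPM) over library sizes scaled by TMM (trimmed mean of M-values). The TMM factors were 2.88 and 3.05 in brain, 0.578 and 0.614 in 4-HT fat body and 0.586 and 0.547 in control fat body. CPM here is therefore not a share of all counts. The 6 fat body markers held 49.0% and 45.6% of counts in 4-HT fat body and 46.6% and 51.3% in control fat body.

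Cells that divide by mitosis raise cyclin-dependent kinase activity, condense their chromosomes, attach them to the spindle through kinetochores and then destroy the mitotic cyclins and the cohesin clamp to separate them. In the wandering larva the central brain holds dividing neuroblasts and their daughters among postmitotic neurons and glia. The larval fat body is a polyploid tissue that grows by endocycles, in which rounds of DNA replication follow each other without mitosis. Most tissue markers followed the labels, with 5 of 6 neuron and 9 of 9 neuroblast markers higher in brain than in control fat body and 6 of 6 fat body markers lower. The neuron marker elav had 204 and 245 CPM in brain, 2.28 and 1.19 CPM in 4-HT fat body and 1.12 and 2.58 CPM in control fat body. The exception in the neuron list was Syt1, with 80.5 and 109 CPM in brain, 687 and 607 CPM in 4-HT fat body and 549 and 608 CPM in control fat body and a log2 fold change of -2.61 ± 0.23 against control (edgeR adjusted p = 1.00e-04). The neuroblast marker ase had 31.9 and 27.0 CPM in brain, 0.110 and 0.0742 CPM in 4-HT fat body and 0.198 and 0.144 CPM in control fat body. Lsp2, a storage protein gene of fat body, had 40.4 and 72.3 CPM in brain, 250566 and 251789 CPM in 4-HT fat body and 219885 and 271036 CPM in control fat body.

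Mitotic genes as a group stood far higher in brain than in either fat body group. Both brain libraries were above all 4 fat body libraries for 35 of 35 genes, which held for 42.9% of all genes tested. Against control fat body, 34 of 35 rose and 0 fell in edgeR's quasi-likelihood test at a Benjamini-Hochberg adjusted p under 0.05, and Bub1 was not called. Of all genes tested 35.5% were called higher in brain and 34.5% lower, 70% in all. With upper quartile scaling those shares were 41.7% and 29.6%, and with library size alone 75.5% and 11.8%. A rise of at least 4-fold was called for 32 genes (20.3% of all genes tested), of at least 16-fold for 25 (11.9%) and of at least 32-fold for 19 (8.64%). The median log2 fold change of the 35 genes was 5.12, against 0.11 for all genes tested, and it is also 5.12 with cid taken at its lower bound. Against 4-HT fat body, with the same brain libraries, 34 of 35 rose and 0 fell (37% of all genes tested higher and 35.7% lower, 72.7% in all). There 31 genes rose at least 4-fold (21.6%), 27 at least 16-fold (12.6%) and 21 at least 32-fold (9.54%), and the median log2 fold change was 5.75, against 0.14 for all genes. Without control replicate 1 the fold over control was larger by over 1.5 times for 16 of the 34 called genes (median log2 fold change of the 35 genes 5.60), and without control replicate 2 it was smaller by as much for 14 (median 4.40). Against 4-HT fat body, the fold was larger by over 1.5 times for 10 and smaller for 1 without 4-HT replicate 1, and larger for 1 and smaller for 6 without 4-HT replicate 2. The summed level of the 35 genes was 1615 and 1425 CPM in brain, 167 and 124 CPM in 4-HT fat body replicates 1 and 2, and 156 and 144 CPM in control fat body replicates 1 and 2. In bulk tissue fewer cells of a type and less RNA per cell cannot be told apart. Of the 35, 29 pass the low-count filter through the fat body libraries alone. The other 6, Cks30A, pim, thr, mad2, borr and cid, passed only with the brain libraries. The filter uses library sizes before TMM scaling, so for these 6 it favours a rise in brain but does not fix it. The counts called and the medians above include these 6.

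**Figure D1:**
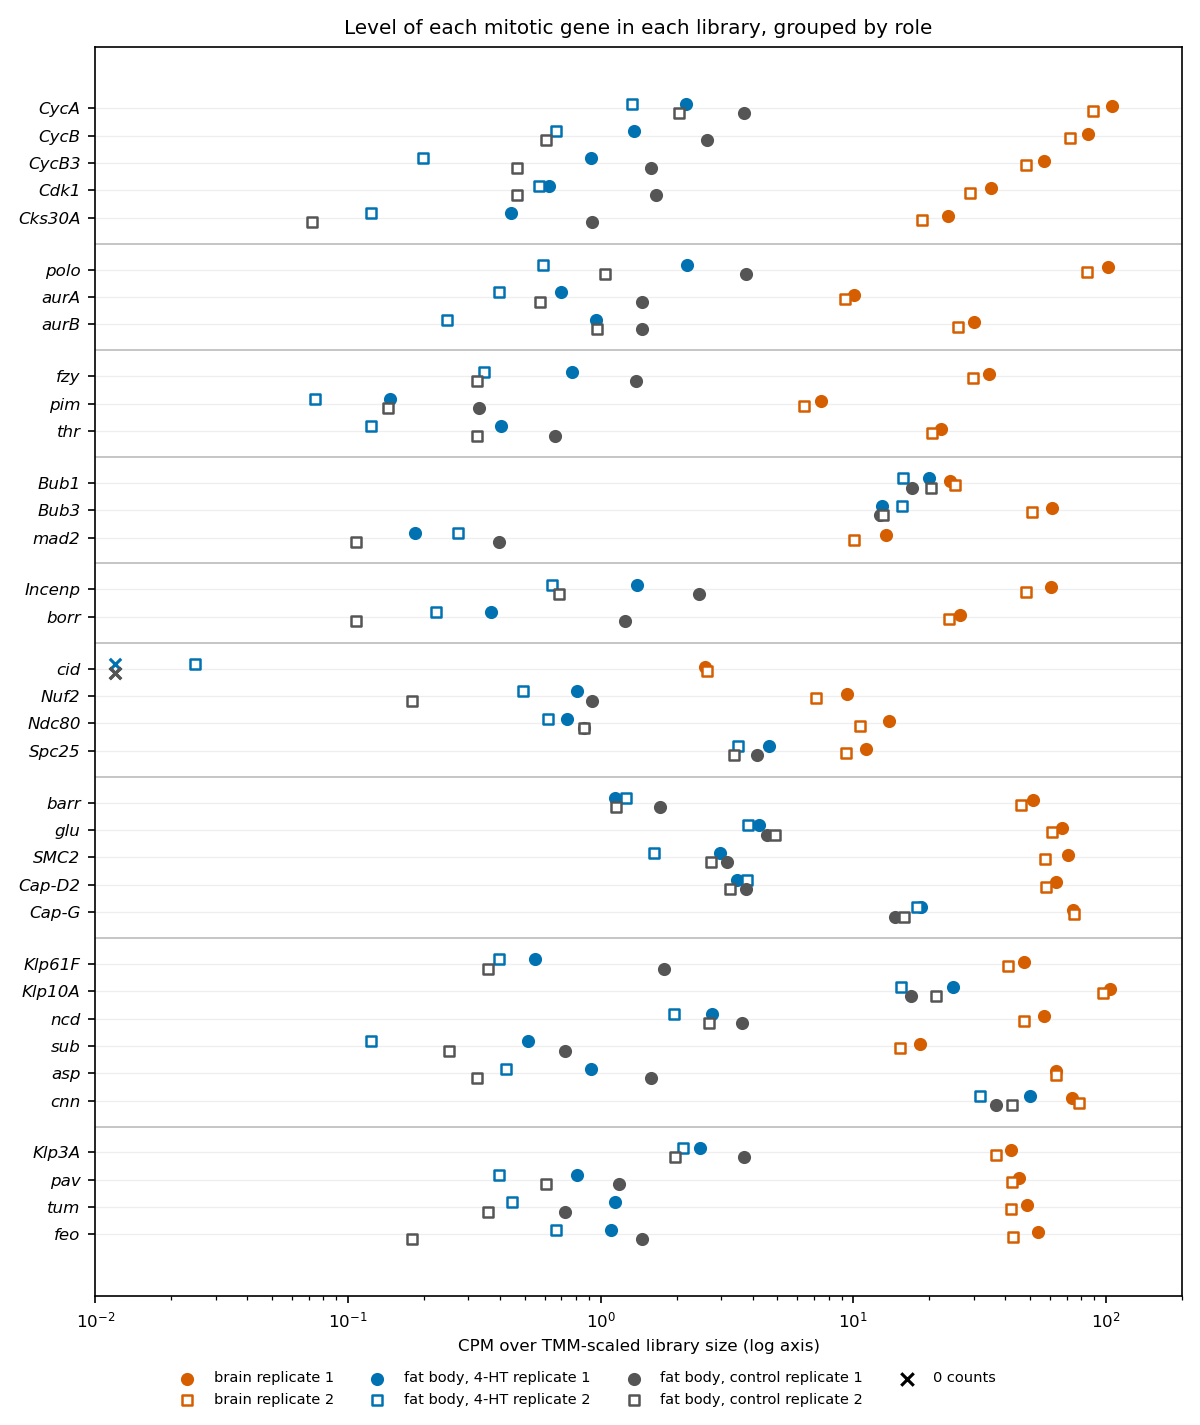
Level of each gene in each library as CPM over TMM-scaled library size on a log axis, grouped by role; brain is orange, 4-HT fat body blue and control fat body grey, replicate 1 filled and replicate 2 open, and crosses mark 0 counts. The brain points lie to the right of all fat body points of the same gene in every line, by the least for Bub1 and by far more for most others.

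The mitotic cyclins and their kinase are the switch for entry into mitosis. CycA, the cyclin that acts earliest of the 3 mitotic cyclins, had 106 and 89.2 CPM in brain, 2.17 and 1.34 CPM in 4-HT fat body and 3.70 and 2.05 CPM in control fat body. Its log2 fold change was 5.12 ± 0.37 (SE) against control and 5.81 ± 0.38 against 4-HT fat body (edgeR adjusted p = 3.91e-05 and 2.39e-05). Both brain libraries of CycA were far above all 4 fat body libraries, and the fat body groups overlapped.

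CycB, a B-type partner of Cdk1, had 84.7 and 72.3 CPM in brain, 1.36 and 0.668 CPM in 4-HT fat body and 2.64 and 0.610 CPM in control fat body. For CycB3, a further mitotic cyclin that acts toward anaphase, levels were 57.1 and 48.4 CPM in brain, 0.920 and 0.198 CPM in 4-HT fat body and 1.58 and 0.467 CPM in control fat body. Within each fat body group, replicate 1 was the higher library for both cyclins, while the brain replicates lay close together. Cdk1, the mitotic kinase itself, had 35.2 and 28.9 CPM in brain, 0.625 and 0.569 CPM in 4-HT fat body and 1.65 and 0.467 CPM in control fat body. Cks30A, a small protein that binds Cdk1, had 23.7 and 18.7 CPM in brain, 0.441 and 0.124 CPM in 4-HT fat body and 0.924 and 0.0718 CPM in control fat body. The log2 fold changes of these 4 genes ran from 5.05 for Cdk1 to 5.82 for CycB3 against control, and from 5.75 for Cdk1 to 6.66 for CycB3 against 4-HT fat body. All 5 cyclin and Cdk1 genes rose in brain in both comparisons, but Cks30A passed the low-count filter only with the brain libraries.

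Apart from Cdk1, described above, and the checkpoint kinase Bub1, described below, 3 other mitotic kinases of the set were measured. For polo, the Polo kinase of spindle assembly and cytokinesis, levels were 102 and 84.0 CPM in brain, 2.21 and 0.594 CPM in 4-HT fat body and 3.76 and 1.04 CPM in control fat body. aurA, the Aurora kinase of centrosomes, had 10.1 and 9.28 CPM in brain, 0.699 and 0.396 CPM in 4-HT fat body and 1.45 and 0.574 CPM in control fat body. aurB, the Aurora kinase of the chromosomal passenger complex, had 30.2 and 25.9 CPM in brain, 0.956 and 0.247 CPM in 4-HT fat body and 1.45 and 0.969 CPM in control fat body. All 3 rose in brain, with log2 fold changes of 5.36 ± 0.75 for polo, 3.33 ± 0.48 for aurA and 4.57 ± 0.52 for aurB against control (edgeR adjusted p = 8.03e-04, 8.67e-04 and 2.86e-04). Per kilobase of exon, the brain level was 31.2 CPM for polo, 23.7 CPM for aurB and 6.15 CPM for aurA, so aurA was the lowest of these 3. Incenp, the scaffold that holds aurB, had 60.5 and 48.4 CPM in brain, 1.40 and 0.643 CPM in 4-HT fat body and 2.44 and 0.682 CPM in control fat body, and borr, the Borealin subunit, had 26.5 and 24.0 CPM in brain, 0.368 and 0.223 CPM in 4-HT fat body and 1.25 and 0.108 CPM in control fat body. The control fat body libraries of borr lie 11.6-fold apart, on 19 and 3 counts, yet the higher of them is far below both brain libraries. The log2 fold change of borr was 5.45 ± 0.75 against control and 6.45 ± 0.78 against 4-HT fat body. borr passed the low-count filter only with the brain libraries.

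Exit from metaphase needs fzy, the Cdc20 activator of the anaphase-promoting complex, which leads to destruction of securin (pim) and release of separase (thr). fzy had 34.3 and 29.7 CPM in brain, 0.772 and 0.346 CPM in 4-HT fat body and 1.39 and 0.323 CPM in control fat body. Separase had 22.2 and 20.5 CPM in brain, 0.405 and 0.124 CPM in 4-HT fat body and 0.660 and 0.323 CPM in control fat body. Securin had 7.49 and 6.37 CPM in brain, from 446 and 515 counts, against 4 and 3 counts in 4-HT fat body and 5 and 4 counts in control fat body. All 3 rose, with log2 fold changes of 5.39 ± 0.61 for fzy, 5.53 ± 0.48 for thr and 4.97 ± 0.50 for pim against control. Over 4-HT fat body these were 5.89 ± 0.61 for fzy, 6.43 ± 0.49 for thr and 5.99 ± 0.52 for pim. Of these genes, thr and pim passed the low-count filter only with the brain libraries, which favours a rise in brain.

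The spindle checkpoint genes split widely, and mad2 passed the low-count filter only with the brain libraries. mad2, the soluble checkpoint protein that holds Cdc20 inactive, had 13.4 and 10.0 CPM in brain, 0.184 and 0.272 CPM in 4-HT fat body and 0.396 and 0.108 CPM in control fat body, and its log2 fold change was 5.72 ± 0.52 against control. Bub3, a WD-repeat checkpoint protein, had 61.0 and 50.8 CPM in brain, 12.9 and 15.5 CPM in 4-HT fat body and 12.7 and 13.1 CPM in control fat body. It rose less, by 2.11 ± 0.18 on the log2 scale against control and 1.97 ± 0.18 against 4-HT fat body (edgeR adjusted p = 7.57e-05 and 9.14e-05). Bub1, a checkpoint kinase of the kinetochore, had 24.1 and 25.4 CPM in brain, 20.0 and 15.8 CPM in 4-HT fat body and 17.1 and 20.3 CPM in control fat body. Brain was above fat body in every library, but the log2 fold change of Bub1 was only 0.40 ± 0.18 against control and 0.47 ± 0.18 against 4-HT fat body, and the edgeR adjusted p was 0.0869 and 0.0509. Per kilobase of exon, Bub1 had 5.78 CPM in brain, 4.18 CPM in 4-HT fat body and 4.37 CPM in control fat body. On the same scale mad2 had 14.3 CPM in brain, 0.279 CPM in 4-HT fat body and 0.308 CPM in control fat body. Bub1 was thus the lower of this pair in brain and the higher in fat body on the per-kilobase scale. Bub1 became a call under upper quartile scaling, under scaling by library size alone and without the low-count filter.

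The kinetochore joins the centromere to spindle microtubules. cid, the centromeric histone H3 variant, had 2.59 and 2.65 CPM in brain from 368 counts, 1 count in the 4-HT libraries together and 0 counts in the control libraries together. Brain was at least 37.6-fold higher than control fat body, taking the floor as 3 counts over the group. cid, too, passed the low-count filter only with the brain libraries. The ratio of cid over 4-HT fat body was 177, with an exact 95% counting interval of 31.6 to 7019 that covers counting error only. Among the Ndc80 complex subunits, which bind microtubules, Nuf2 had 9.47 and 7.11 CPM in brain, 0.809 and 0.495 CPM in 4-HT fat body and 0.924 and 0.179 CPM in control fat body. Ndc80 had 13.9 and 10.7 CPM in brain, 0.736 and 0.618 CPM in 4-HT fat body and 0.858 and 0.861 CPM in control fat body. Spc25 had 11.3 and 9.40 CPM in brain, 4.63 and 3.49 CPM in 4-HT fat body and 4.16 and 3.37 CPM in control fat body. All 3 rose in brain, with a log2 fold change of 4.06 ± 0.67 for Nuf2, 3.83 ± 0.27 for Ndc80 and 1.46 ± 0.24 for Spc25 against control. With 4-HT fat body as the base they were 3.68 ± 0.63 for Nuf2, 4.18 ± 0.27 for Ndc80 and 1.35 ± 0.24 for Spc25 (edgeR adjusted p for Spc25 = 0.00174 and 0.00218).

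Subunits of the same complex differed in fat body more than in brain. Per kilobase of exon, Spc25 had 10.7 CPM in brain, 4.20 in 4-HT fat body and 3.89 in control fat body. Ndc80 had 5.57 CPM in brain, 0.308 CPM in 4-HT fat body and 0.391 CPM in control fat body per kilobase, and Nuf2 had 6.43 CPM in brain, 0.505 CPM in 4-HT fat body and 0.428 CPM in control fat body per kilobase. Spc25 was 1.66-fold above the next subunit in brain, 8.30-fold in 4-HT fat body and 9.10-fold in control fat body. This difference between subunits was not tested.

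Condensin, the ring complex that compacts mitotic chromosomes, gave the same kind of picture. Its 2 SMC subunits are SMC2 and glu (SMC4), and barr (Cap-H), Cap-D2 and Cap-G complete the condensin I complex. Cap-G had 73.9 and 74.9 CPM in brain, 18.6 and 17.8 CPM in 4-HT fat body and 14.7 and 15.9 CPM in control fat body. barr had 51.3 and 46.1 CPM in brain, 1.14 and 1.26 CPM in 4-HT fat body and 1.72 and 1.15 CPM in control fat body. Levels of glu were 66.9 and 61.2 CPM in brain, 4.23 and 3.83 CPM in 4-HT fat body and 4.55 and 4.88 CPM in control fat body. All 5 rose in brain, with the smallest log2 fold change for Cap-G, 2.28 ± 0.15 against control and 2.03 ± 0.15 against 4-HT fat body, and the largest for barr, 5.12 ± 0.24 and 5.33 ± 0.24. The log2 fold changes against control were 3.76 for glu, 4.45 for SMC2 and 4.12 for Cap-D2.

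Per kilobase of exon, the brain levels of the condensin genes ran from 14.1 CPM for Cap-D2 to 17.3 CPM for SMC2, a span of 1.23-fold. In 4-HT fat body they ran from 0.413 CPM for barr to 4.15 CPM for Cap-G, and in control fat body from 0.493 CPM for barr to 3.49 CPM for Cap-G. Those spans are 10.1-fold in 4-HT fat body and 7.08-fold in control fat body. In each fat body group Cap-G stood alone, 4.65-fold above the next subunit with 4-HT and 3.34-fold above it in controls. These levels are per length of all annotated exons of a gene and do not tell its transcripts apart.

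Spindle motors and pole proteins build the bipolar spindle. Klp61F, the kinesin-5 that pushes the poles apart, had 47.3 and 40.9 CPM in brain, 0.552 and 0.396 CPM in 4-HT fat body and 1.78 and 0.359 CPM in control fat body. ncd, the minus-end-directed kinesin-14, had 56.7 and 47.3 CPM in brain, 2.76 and 1.95 CPM in 4-HT fat body and 3.63 and 2.69 CPM in control fat body. sub, the kinesin-6 Subito of the central spindle, had 18.3 and 15.3 CPM in brain, 0.515 and 0.124 CPM in 4-HT fat body and 0.726 and 0.251 CPM in control fat body. Brain and fat body were far apart for all 3, with log2 fold changes against control of 5.52 for Klp61F, 4.06 for ncd and 5.24 for sub. asp, which focuses spindle poles, had 63.3 and 63.6 CPM in brain, 0.920 and 0.420 CPM in 4-HT fat body and 1.58 and 0.323 CPM in control fat body, and its log2 fold change was 6.23 ± 0.64 against control and 6.62 ± 0.64 against 4-HT fat body.

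Klp10A and cnn were the exceptions among the spindle genes. Klp10A, a kinesin-13 that removes tubulin from microtubule ends, had 104 and 97.3 CPM in brain, 24.9 and 15.5 CPM in 4-HT fat body and 16.9 and 21.3 CPM in control fat body. cnn, the centrosomin scaffold of the pericentriolar material, had 73.6 and 78.1 CPM in brain, 49.99 and 31.7 CPM in 4-HT fat body and 36.8 and 42.3 CPM in control fat body, the highest fat body CPM of the set. Both rose in brain, Klp10A by 2.39 ± 0.27 on the log2 scale against control and cnn by 0.94 ± 0.24 (edgeR adjusted p = 2.79e-04 and 0.0123). The log2 fold change over 4-HT fat body was 2.32 ± 0.27 for Klp10A and 0.89 ± 0.24 for cnn (edgeR adjusted p = 3.01e-04 and 0.0144). The call for cnn was lost without brain replicate 2 (edgeR adjusted p = 0.0534 against control and 0.0603 against 4-HT fat body) and, against 4-HT fat body, without 4-HT replicate 2 (0.0596).

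The central spindle and the contractile ring complete division. tum, the RacGAP subunit of centralspindlin, had 48.7 and 42.0 CPM in brain, 1.14 and 0.445 CPM in 4-HT fat body and 0.726 and 0.359 CPM in control fat body. Its log2 fold change against control was 6.48 ± 0.49, or 89.3-fold, the largest of the set apart from cid. pav, the kinesin-6 partner of tum, had 45.5 and 42.6 CPM in brain, 0.809 and 0.396 CPM in 4-HT fat body and 1.19 and 0.610 CPM in control fat body, with a log2 fold change of 5.69 ± 0.40 against control. feo, the PRC1 microtubule bundler, had 54.0 and 42.8 CPM in brain, 1.10 and 0.668 CPM in 4-HT fat body and 1.45 and 0.179 CPM in control fat body. For Klp3A, the kinesin-4 of the midzone, levels were 42.0 and 36.7 CPM in brain, 2.46 and 2.13 CPM in 4-HT fat body and 3.70 and 1.97 CPM in control fat body, and its log2 fold change of 3.83 ± 0.31 was the smallest of the 4. All 4 rose in brain in both comparisons.

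**Figure D2:**
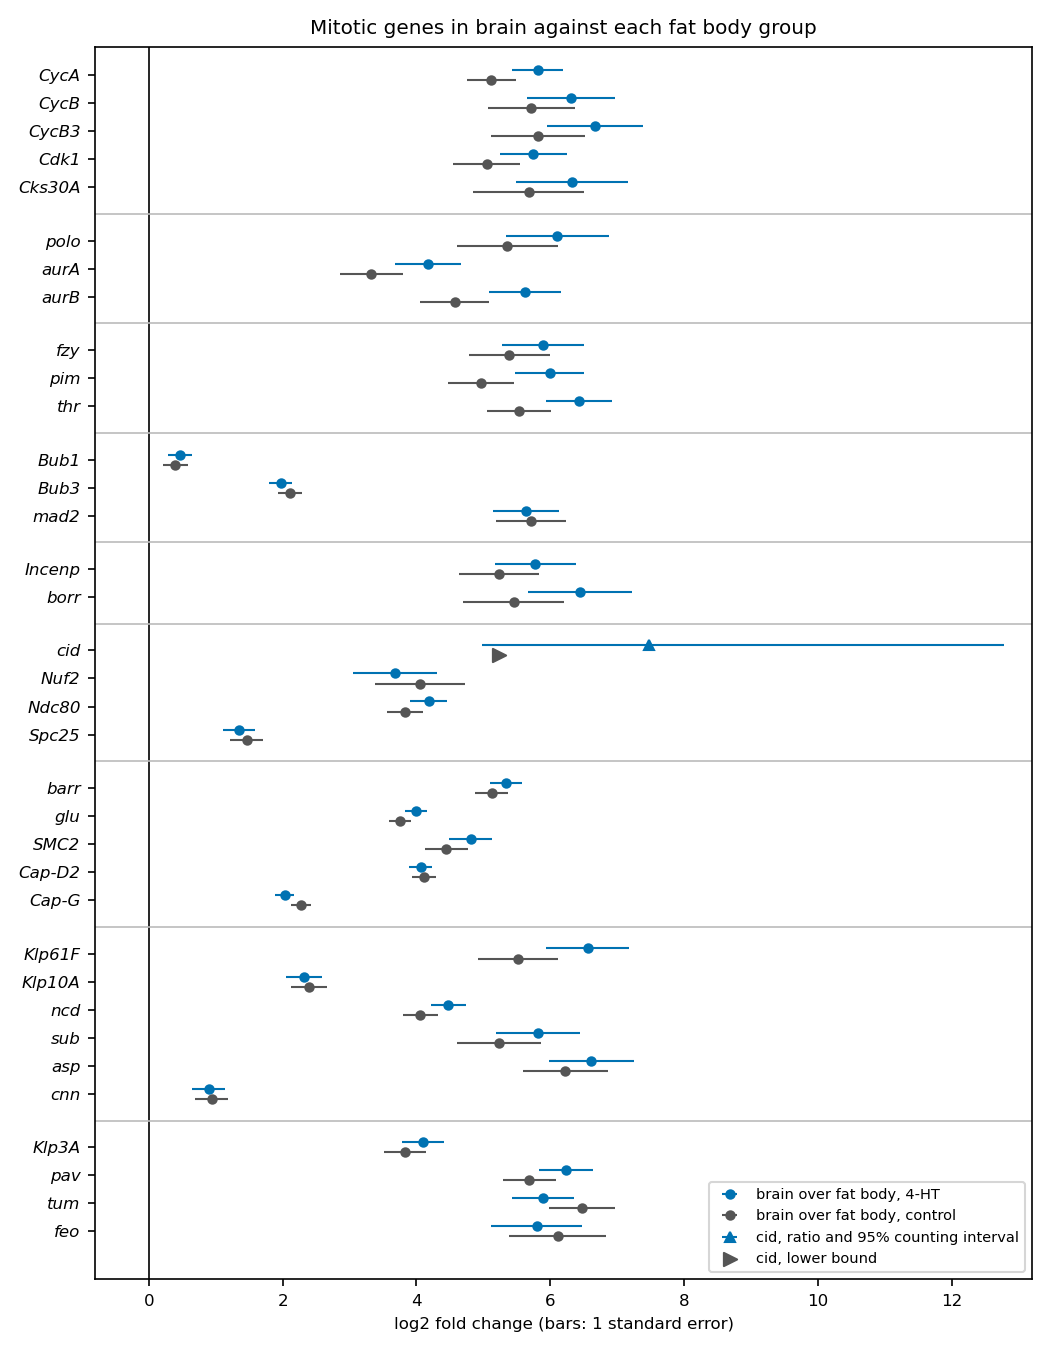
Log2 fold change of each gene in brain over 4-HT fat body (blue) and over control fat body (grey), with bars of 1 standard error, grouped by role; cid is drawn as a counting ratio with its 95% interval and as a lower bound. Bub1, cnn and Spc25 lie nearest to 0, and tum at 6.48 over control is the highest of the genes drawn with a standard error over control.

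No mitotic gene was called with 4-HT. In fat body, 0 of 35 genes passed edgeR's quasi-likelihood test for 4-HT against control, 0 had an unadjusted p under 0.05, and DESeq2 called 0. Over all genes tested, edgeR called 0 (0%) and 596 (5.94%) had an unadjusted p under 0.05. DESeq2 called 44 of the 9122 genes it tested, none of them a member of the set. Fold changes leaned to the lower side: 24 genes were below 0 and 11 above, and the median log2 fold change was -0.39, against 0.01 for all genes. Without control replicate 1 the median was 0.19 and 13 genes were below 0, so the sign of the median rests on that library. Without 4-HT replicate 1 it was -0.73, without 4-HT replicate 2 it was -0.03 and without control replicate 2 it was -0.74. The lowest was aurB at -1.05 ± 0.58 (edgeR adjusted p = 0.870). The highest was tum at 0.59 ± 0.55 (edgeR adjusted p = 0.953), leaving out cid, for which 1 count stands against 0. Both 4-HT libraries were below both control libraries for 3 genes (14.6% of all genes tested) and above them for 1 (15.5%). With 2 libraries a group, changes smaller than the spread between replicates were not detectable.

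That spread was wide for some of the genes and narrow for others. Control replicate 1 was above control replicate 2 for 27 of 35 genes (52.6% of all genes tested) and by over 2-fold for 18 (11%), while the opposite 2-fold gap occurred for 0. The widest gaps were Cks30A at 12.9-fold, borr at 11.6-fold and feo at 8.09-fold. These ratios rest on few counts in control replicates 1 and 2: 14 and 2 for Cks30A, 19 and 3 for borr and 22 and 5 for feo. 4-HT replicate 1 was above 4-HT replicate 2 for 30 genes (46.7%) and by over 2-fold for 12 (8.65%). Control replicate 1 was the highest of the 4 fat body libraries for 24 (31.4%). Replicate 1 was also the higher library in brain for 30 of 35 genes (53.3% of all genes tested), by over 2-fold for 0 (1.43%), with ratios from 0.943 to 1.34 and a median of 1.16.

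The genes with higher fat body levels did not share this gap. A split at 3 CPM of the mean level in 4-HT fat body, chosen after the values were seen, gave 8 genes at or above it: Bub1, Bub3, Spc25, glu, Cap-D2, Cap-G, Klp10A and cnn. For these, control replicate 1 over control replicate 2 ran from 0.793 to 1.23, with a median of 0.926, and 0 of 8 differed by over 2-fold (2.01% of all genes at or above the split). For the 27 genes below the split it ran from 0.996 for Ndc80 to 12.9 for Cks30A, with a median of 3.13 over the 26 with counts, and 18 differed by over 2-fold (26.6% of all genes below the split). Control replicate 1 was the highest fat body library for 24 of the 27 and for 0 of the 8. The split rests on the 4-HT libraries that control replicate 1 is set against here, so part of this contrast is built in. The same count over all genes on each side of the split was not made. Between the 4-HT replicates, 12 of the 27 differed by over 2-fold toward replicate 1 (19.4%), with a median ratio of 1.90, against 1.18 for the 8. Across 34 genes, the log ratio of the control replicates and the log level in 4-HT fat body had Pearson's r of -0.70 and Spearman's rho of -0.73, and for the 4-HT replicates against the control level the values were -0.35 and -0.45. These describe the genes, which share the same libraries and their depth and are not independent.

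**Figure D3:**
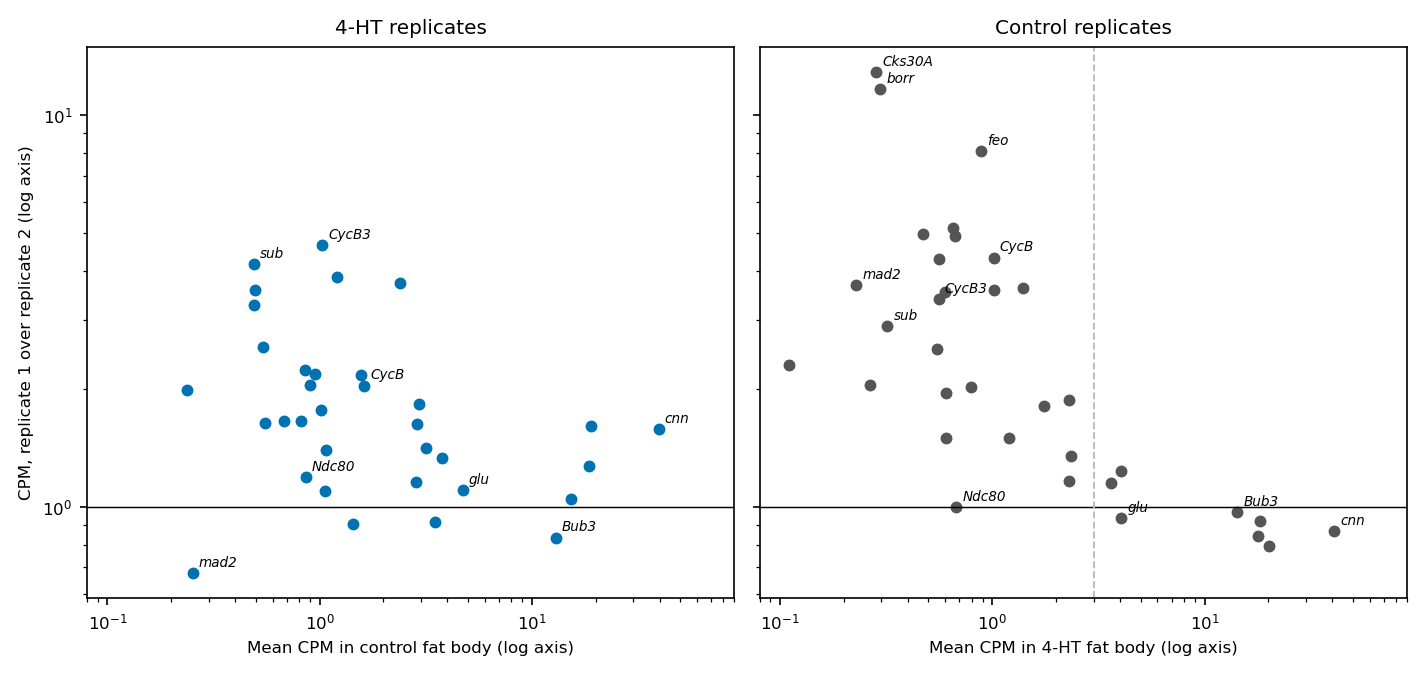
Ratio of replicate 1 over replicate 2 for each gene against the mean level of the gene in the other fat body group, both on log axes, for the 4-HT replicates (left) and the control replicates (right); the dashed line marks 3 CPM. The control ratios lie between 0.793 and 1.23 to the right of the line and reach 12.9 to its left.

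Summed over the 27 genes under 3 CPM, the level was 28.6 and 16.4 CPM in 4-HT fat body replicates 1 and 2, and 45.1 and 19.6 CPM in control fat body replicates 1 and 2. Over the 8 genes at or above 3 CPM it was 139 and 107 CPM in 4-HT fat body replicates 1 and 2, and 111 and 125 CPM in control fat body replicates 1 and 2. Control replicate 1 stood above the other fat body libraries for the 27 genes and within their range for the 8. The split on the 4-HT level favours this contrast. Markers of other tissues were summed in the same libraries. Testis and germline markers, 12 of 14 in the table, summed to 8.20 and 4.25 CPM in 4-HT fat body replicates 1 and 2, and 14.9 and 4.63 CPM in control fat body replicates 1 and 2. Mst87F, a gene of spermatogenesis, had 4.19 and 2.60 CPM in 4-HT fat body replicates 1 and 2 and 5.15 and 2.94 CPM in control fat body replicates 1 and 2. betaTub85D, a testis tubulin, had 0.221 and 0.173 CPM in 4-HT fat body replicates 1 and 2 and 5.28 and 0.323 CPM in control fat body replicates 1 and 2, and piwi had 1.84 and 0.0989 CPM in 4-HT fat body replicates 1 and 2 and 0.396 and 0.0718 CPM in control fat body replicates 1 and 2. The sum was highest in control replicate 1 and next in 4-HT replicate 1, but different genes made it up: betaTub85D was high in control replicate 1 alone and piwi in 4-HT replicate 1, while Mst87F was present in all 4 libraries.

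More marker lists were read the same way. Salivary gland markers, 12 of 12 in the table and led by the glue genes Sgs7 and Sgs5, summed to 3.75 and 3.83 CPM in 4-HT fat body replicates 1 and 2, and 2004 and 3.88 CPM in control fat body replicates 1 and 2. Hemocyte markers, 7 of 8 in the table, summed to 532 and 459.5 CPM in 4-HT fat body replicates 1 and 2, and 545 and 591 CPM in control fat body replicates 1 and 2, most of it srp. Without srp, which is itself high in fat body, they summed to 36.7 and 58.4 CPM in 4-HT fat body replicates 1 and 2, and 169 and 41.3 CPM in control fat body replicates 1 and 2, with Hml the most abundant. Muscle and tracheal markers, only Mlc2 and up in the table of 6, summed to 15.0 and 9.67 CPM in 4-HT fat body replicates 1 and 2, and 22.7 and 14.5 CPM in control fat body replicates 1 and 2. Control replicate 1 was highest for the salivary gland sum, by the widest margin, for muscle and trachea, and for hemocyte markers only with srp left out; with srp, control replicate 2 was highest. Neuroblast markers, 9 of 9 in the table and led by insc and pros, summed to 7.10 and 3.14 CPM in 4-HT fat body replicates 1 and 2, and 6.01 and 6.68 CPM in control fat body replicates 1 and 2. Imaginal disc markers, 6 of 8 in the table and led by Ubx and bab1, summed to 5.85 and 6.41 CPM in 4-HT fat body replicates 1 and 2, and 4.62 and 5.60 CPM in control fat body replicates 1 and 2. Most of the disc sum was Ubx, and without it the sum was 1.32 and 1.06 CPM in 4-HT fat body replicates 1 and 2, and 0.660 and 1.00 CPM in control fat body replicates 1 and 2. The neuroblast sum and both disc sums were not highest in control replicate 1. Among neuroblast markers 1 and 2 of 9 were at 0 in 4-HT replicates 1 and 2, and 1 was at 0 in each control library. Their part in the levels of the mitotic genes was not tested.

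**Figure D4:**
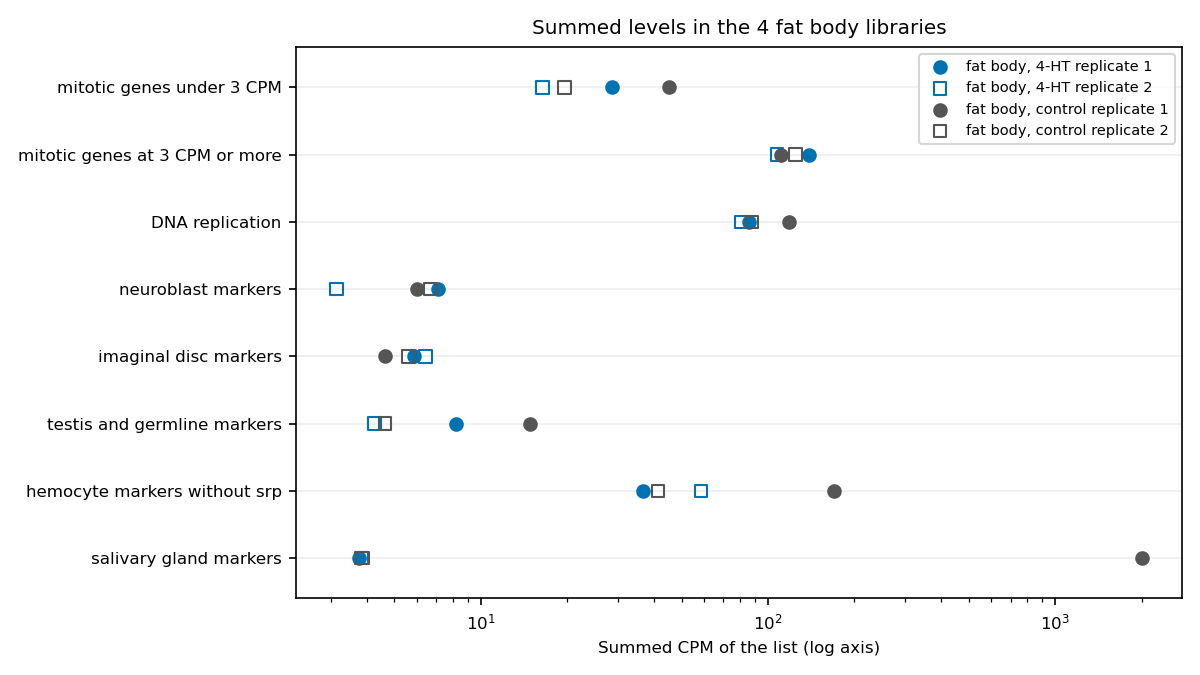
Summed CPM of each list in the 4 fat body libraries on a log axis, with 4-HT in blue and control in grey, replicate 1 filled and replicate 2 open. Control replicate 1 is highest for the mitotic genes under 3 CPM, DNA replication, testis, hemocyte (without srp) and salivary gland lists, and not for the mitotic genes at 3 CPM or more. The 3 CPM split was made on the level in 4-HT fat body.

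Other division genes were read from 9 further lists in the same fit. The comparison is brain against control fat body, in which 35.5% of all genes tested were higher and 34.5% lower, and differences between lists were not tested. DNA replication genes, which endocycling cells also use, had 22 of 24 higher, 0 lower and a median log2 fold change of 2.97. PCNA, the replication clamp, had 80.3 and 65.2 CPM in brain, 2.24 and 2.00 CPM in 4-HT fat body and 5.28 and 1.65 CPM in control fat body, and Mcm2, a helicase subunit, had 65.4 and 54.97 CPM in brain, 2.35 and 1.61 CPM in 4-HT fat body and 3.89 and 2.48 CPM in control fat body. Both rose, with log2 fold changes of 4.45 for PCNA and 4.27 for Mcm2. The replication sum in fat body was 86.2 and 81.0 CPM in 4-HT fat body replicates 1 and 2, and 118 and 87.9 CPM in control fat body replicates 1 and 2, again with control replicate 1 highest, while it was 837 and 728 CPM in brain.

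Spindle and kinetochore genes outside the set gave high medians. Augmin and other spindle assembly genes rose in 13 of 15 cases and fell in 0, and their median was 4.43, led by mei-38 (log2 fold change 6.41) and the augmin subunit msd1 (6.13). Among other kinetochore and checkpoint genes 13 of 14 rose and 0 fell, and the median was 3.73. Spc105R, the KNL1 scaffold of the outer kinetochore, had 41.8 and 43.3 CPM in brain, 1.21 and 0.396 CPM in 4-HT fat body and 1.32 and 0.359 CPM in control fat body, and its log2 fold change was 5.81. cmet, a CENP-E kinesin, had a log2 fold change of 5.41. Among centrosome and centriole genes 12 of 15 rose and 1 fell, and the median was 2.71, led by Cep135 at 5.33 and spd-2 at 4.41. Grip91, a gamma-tubulin ring complex subunit, was the lower one at -0.54 (edgeR adjusted p = 0.0365).

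The remaining lists had lower medians. Cohesin and other condensin genes had 6 of 9 higher, 0 lower and a median of 0.60, led by Cap-H2 at 2.72 and SMC3 at 2.57. The list for the anaphase-promoting complex and its ubiquitin enzymes had 8 of 10 higher, 0 lower and a median of 1.41. It was led by Rca1, which is neither a subunit nor a ubiquitin enzyme, at 3.23, and by the subunit APC4 at 2.10. For dREAM and E2F regulators the count was 8 of 10 higher and 0 lower and the median 1.37, led by Rbf2 at 3.94 and mip120 at 1.71. Mitotic entry and exit regulators had 5 of 10 higher, 2 lower and a median of 0.54. stg, the Cdc25 phosphatase that activates Cdk1, had 62.1 and 55.7 CPM in brain, 0.993 and 0.420 CPM in 4-HT fat body and 1.85 and 0.502 CPM in control fat body, and rose by 5.78 ± 0.60 on the log2 scale, and Cdk2, the S phase kinase, by 3.49 ± 0.18. Myt1, the kinase that holds Cdk1 inactive, was lower at -0.76, and Cks85A was lower at -1.55. Other cytokinesis genes had 5 of 13 higher and 5 lower, with a median of 0.15. sti, the citron kinase, rose by 5.83 on the log2 scale and scra, the anillin, by 5.26. The 5 that fell were nuf at -2.16, dia at -1.40, RhoGEF2 at -1.09, Rho1 at -1.03 and sqh at -0.67. Scaling by library size alone adds nearly the same amount to every log2 fold change. On that scale the 8 genes called lower in these lists were above 0, from 0.23 for nuf to 1.85 for Grip91. With RLE scaling all 8 stayed below 0, from -2.17 for nuf to -0.54 for Grip91. Upper quartile scaling also kept them below 0, from -1.83 for nuf to -0.20 for Grip91. Among the scalings tried, only library size alone changed their direction. With 4-HT, edgeR called 0 genes in each of the 9 lists.

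**Figure D5:**
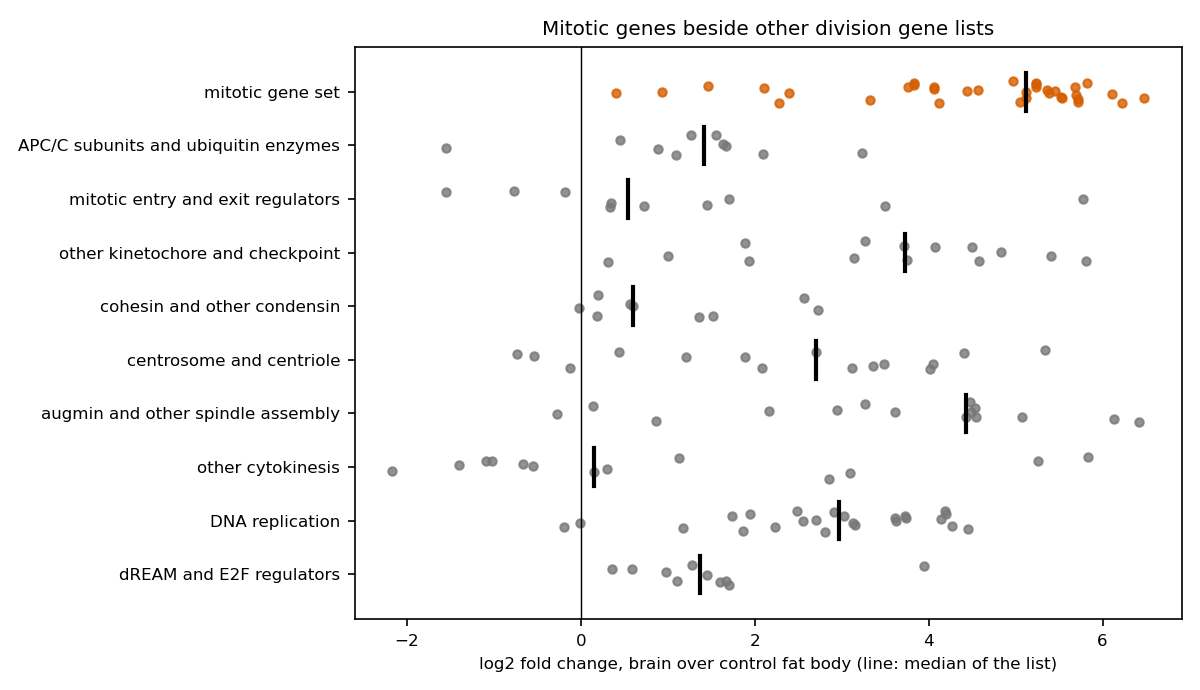
Log2 fold change in brain over control fat body for the mitotic gene set (orange) and 9 other division gene lists (grey), 1 point per tested gene, with a line at the list's median; cid is drawn at its lower bound. The medians run from 0.15 for other cytokinesis genes to 5.12 for the mitotic gene set.

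Some levels carry a counting limit. Exons of 11 of the 35 genes overlap exons of a gene on the opposite strand, in all cases by under 21% of the exon length. The largest overlaps are sub with Ir54a at 20.6%, Bub3 with ppk19 at 15.9%, ncd with ca at 11.7%, mad2 with kri at 11.5% and Klp61F with galene at 11.0%. The library kit does not mark strand, so reads from such stretches cannot be assigned to one gene.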

How the data were processed

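Each of 3 groups had 2 libraries, grouped by the labels. The authors deposited whole-number counts per FlyBase gene, with no scaling. Per the submitters' processing notes the tools were TopHat, HTSeq and DESeq and the build dm3. Their versions, counting mode and strand setting were not given in the sources used here. The deposited comparison tables were not used here. The p-values measure the spread between libraries that the labels call biological replicates, each a pool of lines.

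The filterByExpr function of edgeR 4.0.16 (R 4.3.3) kept 10029 genes. After TMM scaling, 1 quasi-likelihood model (robust estimateDisp and glmQLFit, glmQLFTest) of the 6 libraries had a term for group and no other, which leaves 3 residual degrees of freedom. Calls were made where the Benjamini-Hochberg adjusted p, computed across the whole table, was under 0.05. The SE of a log2 fold change is its size divided by the square root of the F statistic, an approximation. The procedure was tested on simulated data, in which each gene started from its mean level over the 6 libraries. For brain against fat body it therefore does not cover genes with few counts in fat body alone. Symbols were matched to identifiers through Ensembl release 115 and RefSeq gene tables. CPM per kilobase uses the union of Ensembl release 115 exons of the BDGP6 assembly, not the authors' annotation, and no coordinates are given since the files use dm3. Protein or promoter sequences were not used here. The floor is 3 counts per group, and floors and 95% counting intervals cover counting error only.

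Alternatives were RLE, upper quartile and library size scaling, no low-count filter, DESeq2 1.42.0, only the 2 groups compared, the replicate number as a block, and leaving out each library. All members of the set are named. Of each further division list the text names the 2 called genes with the largest absolute log2 fold change in brain against control and every gene called lower, and of marker lists at most the 2 most abundant in fat body. Outside this rule, ase and piwi were chosen after their values were seen. The members and lists were chosen with earlier results of these data known.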

Additional observations from a re-analysis of the deposited data

How the results depend on the processing

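The count of mitotic genes called higher in brain was 33 to 35 against each fat body group under all 13 alternatives, with 0 called lower, and 0 were called with 4-HT. Leaving out 1 library gave 33 to 34 against control and 33 to 35 against 4-HT fat body. The log2 fold change of Bub1 against control fat body passed the edgeR test under upper quartile scaling (0.74, adjusted p = 0.00917), library size alone (2.79, 9.85e-06) and without the filter (0.54, 0.0413). In brain against 4-HT fat body, Bub1 passed under the same settings (0.86, 0.00457; 2.79, 9.91e-06; 0.58, 0.0277), without control replicate 1 (0.50, 0.0448) and without 4-HT replicate 1 (0.65, 0.0303). The cause was not tested. Library size alone moved the median of all genes in brain against control to 2.49, against 0.11 with TMM and 0.44 with upper quartile scaling, and the median of the mitotic genes to 7.50. Relative to all genes the mitotic median was 5.01 under each of these scalings. For brain against 4-HT fat body the mitotic median was 8.05 with library size alone. Over all genes, calls with 4-HT numbered 0 by edgeR, 44 by DESeq2, 2 without the filter, 20 and 38 without 4-HT replicates 1 and 2, and 5 without either control replicate. The labels give no shared source for libraries of the same replicate number, and deviations of same-numbered libraries correlated at -0.09 between brain and 4-HT fat body, 0.19 between brain and control fat body and -0.14 between the fat body groups. With the replicate block 34, 34 and 0 genes were called higher in brain against control, brain against 4-HT fat body and 4-HT against control. Depth limits cid, pim and mad2 most: fewer than 2 fat body libraries held at least 10 counts of each.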
